A study of Homo sapiens with 6 samples.

Results

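The genes described here are mesothelin (MSLN) and 9 mucin genes, MUC1, MUC3A, MUC4, MUC5AC, MUC5B, MUC12, MUC13, MUC16 and MUC20. They were taken by gene name from a table of 35856 genes, and all 10 were listed. They were chosen by their counts and FPKM in these same libraries, in LINC00862 against Empty, as earlier results showed them, so their levels and differences are given as a description, and no p-value is given for them. RNA was sequenced from HCCLM3, an established human hepatoma cell line, in 3 libraries that received a vector carrying the long noncoding RNA LINC00862 (group LINC00862) and in 3 that received an empty vector (group Empty, labelled NC). The methods place LINC00862 on pcDNA3.1, and neither they nor the labels say whether the libraries of a group came from separate cultures, so the spread between libraries may be technical. The total counts lay between 58241123 and 68229070. LINC00862 itself had 11, 21 and 6 counts in Empty and 145, 121 and 76 in LINC00862, in the direction that the labels give. Its level was low in both groups, 0.0507 ± 0.0343 FPKM in Empty and 0.449 ± 0.120 FPKM in LINC00862 (SD, n = 3 each).

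Mucins are large glycoproteins whose central parts are rich in serine, threonine and proline, and O-linked sugars attached to serine and threonine hold these parts stiff. Membrane mucins (7 of the members: MUC1, MUC3A, MUC4, MUC12, MUC13, MUC16 and MUC20) stay on the cell surface, while gel-forming mucins (2 of them: MUC5AC and MUC5B) are secreted and form mucus. Mesothelin is made as a precursor that furin cuts, and its mature form is held on the surface by a glycosylphosphatidylinositol (GPI) anchor and binds MUC16. Hepatocytes make little of these proteins, while the bile ducts and the gut epithelium make several mucins, and mesothelin is a marker of mesothelium and of several carcinomas.

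The repeats of the mucins were read from the GENCODE 29 transcripts on GRCh38, and the copies printed are those that occur most often, in the reading frame. Capitals mark codons for serine, threonine or proline. The repeat of MUC1 lies at chr1:155191820-155191879 on the minus strand in exon 2 of 11, spans 60 bases and occurs 19 times without a mismatch. That of MUC4 lies at chr3:195788034-195788081 on the minus strand in exon 2 of 25 and occurs 14 times. That of MUC20 lies at chr3:195725150-195725206 on the plus strand in exon 1 of 3 and occurs 10 times. That of MUC5B lies at chr11:1243190-1243276 on the plus strand in exon 31 of 49 and occurs 5 times. Those of MUC3A, at chr7:100953142-100953192 on the plus strand, and MUC13, at chr3:124927818-124927841 on the minus strand, occurred 2 times each.
MUC1: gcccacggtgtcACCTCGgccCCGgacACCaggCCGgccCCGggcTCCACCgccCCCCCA
MUC4: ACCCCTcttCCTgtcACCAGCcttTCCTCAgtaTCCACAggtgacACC
MUC20: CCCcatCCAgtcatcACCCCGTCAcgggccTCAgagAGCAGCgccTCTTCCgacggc
MUC5B: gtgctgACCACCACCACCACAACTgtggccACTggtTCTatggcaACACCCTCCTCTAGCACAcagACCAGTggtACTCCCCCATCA
MUC3A: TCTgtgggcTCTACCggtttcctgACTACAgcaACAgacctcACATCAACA
MUC13: CCTgctCCCCCCataattAGTACA

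Over the whole reading frame, codons for these 3 amino acids made up 58.1% of MUC3A and 30.7% of MUC13, the highest and the lowest of the 9 mucins. The median of 18722 protein-coding genes was 18.6%, and mesothelin, with 19.9%, lay near it. Repeats also bear on the counting, since a read inside a repeat has several places in the same gene. Stretches of 100 bases that occur more than once took 49.7% of the MUC12 transcript, 32.5% of MUC1, 19.1% of MUC5B, 16.4% of MUC20 and 13.1% of MUC4, and 0% of MSLN, MUC13 and MUC3A. The MUC12 transcript measured is not among those the deposited table lists. Of all stretches of 100 bases in the MUC20 transcript, 58.1% also occurred in MUC20-OT1 or the pseudogene MUC20P1, so its reads could be split among these genes. How reads with several places were counted is not given in the sources used here, and the values of MUC20 are uncertain in this respect.

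The sum of the 10 genes was 33.7, 44.3 and 49.3 FPKM, which corrects read numbers for transcript length and sequencing depth, in the Empty libraries and 170.7, 157.5 and 132.3 FPKM in the LINC00862 libraries. Its makeup differed as well. Mesothelin took 78.2% to 79.6% of the sum in Empty and MUC13 took 84.4% to 86.7% in LINC00862, while MUC13 took 0.763% to 1.69% in Empty and mesothelin 0.0291% to 0.142% in LINC00862. MUC1 took 19.4% to 20.2% of the sum in Empty and 6.97% to 7.76% in LINC00862. In RNA from bulk cells, a larger share of cells that make a transcript and more of it in each cell cannot be told apart.

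**Figure D1:**
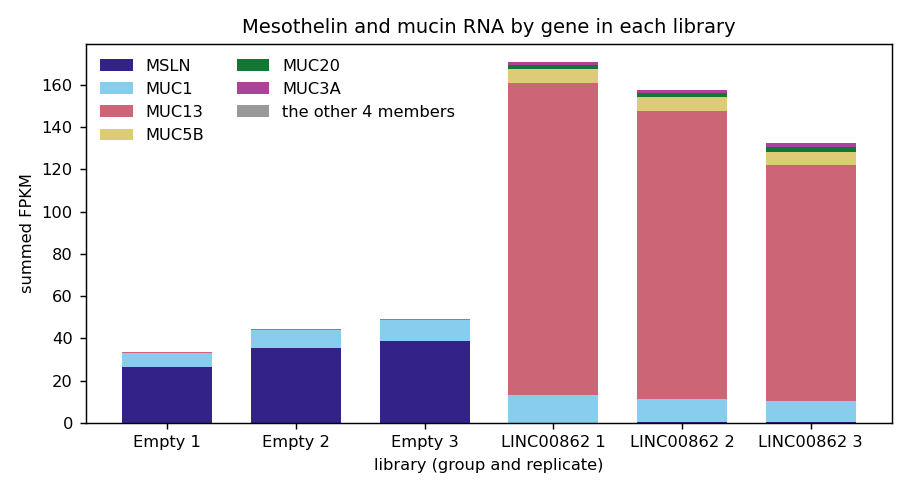
Summed FPKM of mesothelin and the 9 mucins in each of the 6 libraries, with 1 bar per library and 1 colour per gene. Mesothelin fills most of the 3 Empty bars, which reach 33.7 to 49.3 FPKM, and MUC13 fills most of the 3 LINC00862 bars, which reach 132.3 to 170.7 FPKM.

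Mesothelin (ENSG00000102854) lies on chromosome 16 from 760734 to 768865 on the plus strand, in the coordinates of the deposited table on hg38. It had 4516, 5960 and 6704 counts in the Empty libraries and 10, 27 and 33 counts in the LINC00862 libraries. In FPKM these were 26.3, 35.3 and 38.8 against 0.0497, 0.153 and 0.187, or 33.5 ± 6.42 (SD, n = 3) against 0.130 ± 0.0716 (SD, n = 3). Every Empty library was far above every LINC00862 library, and the means differed 258-fold. The fitted log2 fold change of LINC00862 against Empty, from edgeR on the counts, was -7.82 with a standard error of 0.44. Ranked by FPKM within a library, mesothelin stood at 1101 to 1499 in Empty and at 18202 to 23496 in LINC00862.

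Of 7 members that passed the filter on low counts, 6 were called higher and 1, mesothelin, lower in LINC00862 by edgeR's quasi-likelihood test at a false discovery rate of 0.05. Of all 20741 tested genes, 64.2% were called, 34.4% higher and 29.8% lower. Since this contrast helped to choose the members, their calls are no independent test, and nothing is read from their count. MUC5AC, MUC12 and MUC16 did not pass the filter. The FPKM of 8 of the 10 members did not overlap between the groups. These were the 7 that passed the filter, beside 71.1% of all tested genes, and MUC12, which did not pass and whose groups were only 0.0016 FPKM apart.

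**Figure D2:**
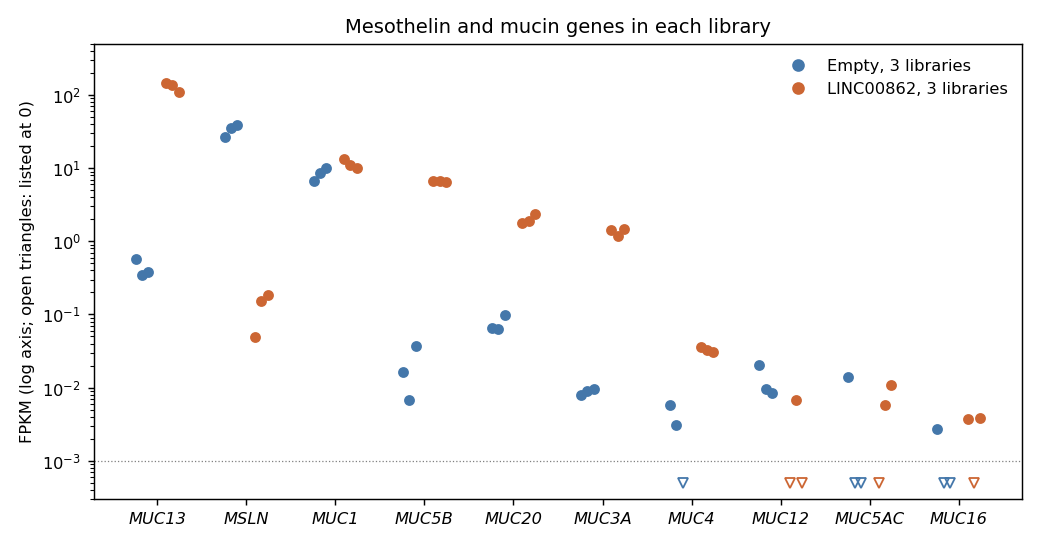
FPKM of each of the 10 genes on a log axis, with 1 point per library, blue for Empty and orange for LINC00862, and open triangles for libraries listed at 0. The genes are ordered by the higher of their group means; MUC13 and MSLN change places between the groups, while the points of MUC1 lie close together.

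MUC13 (ENSG00000173702; chromosome 3, 124905442 to 124934751, minus strand), a membrane mucin of the gut epithelium with EGF-like domains outside the cell, had the highest level of the members in LINC00862. Its counts were 134, 80 and 89 in Empty and 39410, 31528 and 26178 in LINC00862. Its FPKM was 0.568, 0.345 and 0.376 in Empty and 147.4, 136.5 and 111.6 in LINC00862, with means of 0.429 ± 0.121 and 131.8 ± 18.3 (SD, n = 3 each). The groups were far apart, 307-fold by their means, and the fitted log2 fold change was 8.42 with a standard error of 0.24. Its rank by FPKM was 13198 to 14329 in Empty and 223 to 238 in LINC00862.

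MUC1 (ENSG00000185499; chromosome 1, 155185824 to 155192915, minus strand), a membrane mucin on the apical surface of most glandular epithelia, was the only member above 1 FPKM in all 6 libraries. It had 2074, 2659 and 3134 counts in Empty and 4782, 3423 and 3229 in LINC00862. Its FPKM was 6.63, 8.61 and 9.94 in Empty and 13.3, 11.0 and 10.2 in LINC00862. The groups did not overlap, but the highest Empty library and the lowest LINC00862 library were only 0.259 FPKM apart. The means were 8.39 ± 1.66 and 11.5 ± 1.59 FPKM (SD, n = 3 each), a ratio of 1.37, and the fitted log2 fold change was 0.61 with a standard error of 0.20. Leaving out each library in turn gave 0.43 to 0.79. The lncRNA gene AL713999 overlaps the end of MUC1 on the same strand, and its 0, 0 and 38 counts in Empty and 144, 156 and 74 in LINC00862 could be shared with it.

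MUC3A (ENSG00000169894; chromosome 7, 100949534 to 100968347, plus strand), a membrane mucin of the intestine, had 6, 7 and 8 counts in Empty and 1264, 881 and 1112 in LINC00862. Its FPKM was 0.00785, 0.00902 and 0.00947 in Empty and 1.45, 1.17 and 1.46 in LINC00862. Its Empty level was close to nothing in all 3 libraries, and the fitted log2 fold change was 7.35 with a standard error of 0.30.

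MUC20 (ENSG00000176945; chromosome 3, 195720884 to 195741123, plus strand), a mucin that binds the receptor MET, had 31, 29 and 45 counts in Empty and 947, 870 and 1088 in LINC00862. Its FPKM was 0.0661, 0.0638 and 0.0982 in Empty and 1.81, 1.92 and 2.37 in LINC00862, and the fitted log2 fold change was 4.89 with a standard error of 0.30. The groups were separate, though MUC20 shares sequence with MUC20-OT1, which overlaps it on the same strand. MUC20-OT1 had 1.08 ± 0.162 FPKM in Empty and 1.22 ± 0.0850 FPKM in LINC00862 (SD, n = 3 each) and was not called (adjusted p = 0.0585, edgeR).

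MUC4 (ENSG00000145113; chromosome 3, 195746765 to 195811973, minus strand), a membrane mucin that binds ERBB2, had 8, 5 and 0 counts in Empty and 58, 47 and 44 in LINC00862. Its FPKM was 0.00571, 0.00303 and 0 in Empty and 0.0357, 0.0328 and 0.0307 in LINC00862, low in all 6 libraries. The fitted log2 fold change of 3.59 had a standard error of 0.81, the largest of the 7 fitted members.

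MUC12 (ENSG00000205277; chromosome 7, 100969623 to 101018949, plus strand) and MUC16 (ENSG00000181143; chromosome 19, 8848844 to 8981342, minus strand), which carries the CA125 antigen and is the ligand of mesothelin, were near the limit of detection. MUC12 had 24, 11 and 10 counts in Empty and 0, 8 and 0 in LINC00862. MUC16 had 8, 0 and 0 counts in Empty and 13, 0 and 12 in LINC00862, so mesothelin in Empty stood beside almost no RNA of its ligand. A difference in MUC16 was not detectable at this depth.

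Among the gel-forming mucins, MUC5B (ENSG00000117983; chromosome 11, 1223066 to 1262172, plus strand), a mucin of airway, salivary gland and gallbladder secretions, differed most between the groups. It had 21, 9 and 47 counts in Empty and 9618, 8258 and 7958 in LINC00862. Its FPKM was 0.0166, 0.00686 and 0.0367 in Empty and 6.77, 6.72 and 6.38 in LINC00862. The coefficient of variation (SD over mean) was 3.18% in LINC00862, the lowest of any member there, and 75.9% in Empty, where reads were few. The fitted log2 fold change was 8.47 with a standard error of 0.46. Its neighbour MUC5AC (ENSG00000215182; chromosome 11, 1157953 to 1201138, plus strand), the mucin of the stomach surface and the airway, had 16, 0 and 0 counts in Empty and 0, 7 and 13 in LINC00862. The groups of MUC5AC overlapped, and a difference was not detectable at this depth.

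**Figure D3:**
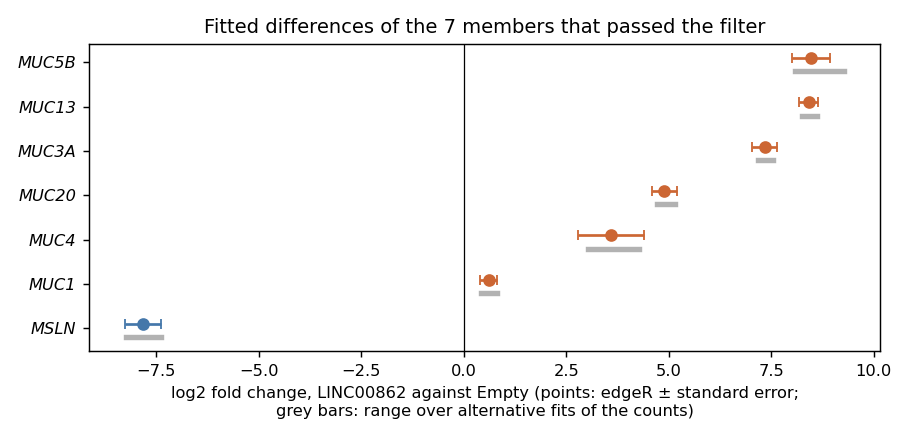
Fitted log2 fold change of LINC00862 against Empty for the 7 genes that passed the filter on low counts, as points with the standard error from edgeR, and the range over alternative fits of the counts as grey bars. Mesothelin lies at -7.82, MUC1 at 0.61 and the others between 3.59 and 8.47, and none of the grey bars reaches 0.

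Per length, the order of the levels in Empty was MSLN, MUC1, MUC13, MUC20, MUC5B, MUC12, MUC3A, MUC5AC, MUC4 and MUC16. From MUC5B to MUC16 each gene overlapped the next in its library values, so that part of the order is not fixed. The mean of LINC00862 over that of Empty was 307 for MUC13 and for AGR2. For FGA, FGB and FGG it was 298, 314 and 323, but 107 for KRT19 and 29.7 for CLDN4, all picked after their values were seen. Whether such low Empty levels are expression in those cells or reads from elsewhere was not tested. The Empty level and rank of MUC13 may thus be upper limits. In LINC00862 the order was MUC13, MUC1, MUC5B, MUC20, MUC3A, MSLN, MUC4, MUC5AC, MUC16 and MUC12. The libraries of neighbouring genes did not overlap there down to MUC5AC, and MUC5AC, MUC16 and MUC12 overlapped each other in turn.

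Promoters are shown for the mucin with the highest level in LINC00862, for the mucin expressed in both groups and for MUC3A. They hold the 250 bases before the gene's start in RefSeq (GRCh38.p14), 5′ to 3′ on the gene's strand, at chr3:124934752-124935001 (minus) for MUC13, chr1:155192916-155193165 (minus) for MUC1 and chr7:100949284-100949533 (plus) for MUC3A. RefSeq promoters were matched for 6 of the 10 members. Capitals mark matches on either strand to the letters of known sites. CAAAGTCCA stands for the nuclear receptor HNF4. For the TEAD factors, which act with YAP, the motif searched was CATTCC. The box called TATA was taken as the letters TATAAA anywhere in this window. A GC box, which the general factor SP1 can bind, was taken as the letters GGGCGG in the same window. The motifs of FOXA factors, with the letters TGTTTAC, and of the GATA family, with the letters AGATAA, were searched too and had no match in these promoters.
MUC13: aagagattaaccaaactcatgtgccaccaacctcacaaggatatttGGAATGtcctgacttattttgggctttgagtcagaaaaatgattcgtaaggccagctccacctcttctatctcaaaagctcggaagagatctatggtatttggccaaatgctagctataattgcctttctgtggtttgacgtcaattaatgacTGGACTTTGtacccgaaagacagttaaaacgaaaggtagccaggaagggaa
MUC1: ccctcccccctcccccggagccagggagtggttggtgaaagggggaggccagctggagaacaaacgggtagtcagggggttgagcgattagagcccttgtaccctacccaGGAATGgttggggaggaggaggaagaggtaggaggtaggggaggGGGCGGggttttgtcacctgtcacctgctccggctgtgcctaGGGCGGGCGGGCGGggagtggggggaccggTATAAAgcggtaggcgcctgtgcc
MUC3A: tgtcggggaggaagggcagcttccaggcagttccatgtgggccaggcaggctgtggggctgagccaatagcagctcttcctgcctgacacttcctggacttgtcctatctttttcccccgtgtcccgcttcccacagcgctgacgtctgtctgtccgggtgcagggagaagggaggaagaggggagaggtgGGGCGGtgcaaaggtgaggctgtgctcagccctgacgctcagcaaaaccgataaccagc

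The promoter of MUC13 held the HNF4 letters 51 bases before the start, on the minus strand, and 0.293% of 27305 promoters of this length hold them on either strand. It also held the TEAD letters (11.9% of promoters), and neither a TATA box nor a GC box. The promoter of MUC1 held a TATA box 24 bases before the start (11.1% of promoters), 4 GC boxes, 3 of which overlap, and the TEAD letters. The promoter of MUC3A held 1 GC box, as 42.3% of promoters do. HNF4A, which codes for an HNF4 factor, had 0, 0 and 4 counts in Empty and 34, 24 and 14 in LINC00862, low in both groups. These matches describe the letters only, binding was not measured here, and a link between HNF4 and MUC13 was not tested.

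Of 14 distinct nearest tested neighbours outside the members, 7 were called higher and 4 lower. Among all tested genes 34.4% were called higher and 29.8% lower. From here on, levels are means with the SD of 3 libraries in each group, Empty before LINC00862. HEG1, which codes for a mucin-like membrane receptor of endothelial cells and lies 30959 bases from MUC13, fell from 16.6 ± 7.66 to 0.328 ± 0.0488 FPKM (log2 fold change -5.46, adjusted p = 7.72e-07, edgeR). ITGB5, an integrin subunit 4024 bases from MUC13 on its other side, had 12.9 ± 1.45 and 9.09 ± 2.03 FPKM and was not called. Next to mesothelin, MSLNL, its closest relative, lies 563 bases away on the opposite strand and fell from 1.06 ± 0.0816 to 0.159 ± 0.0179 FPKM (log2 fold change -2.52, adjusted p = 0.000176, edgeR). CIAO3, on the other side of mesothelin, rose with a log2 fold change of 1.04 (adjusted p = 0.00111, edgeR).

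MUC20 and MUC4 lie 5642 bases apart on opposite strands, and MUC3A and MUC12 lie 1276 bases apart on the same strand, 1 of each pair with far more reads than the other in LINC00862. ACHE, the acetylcholinesterase gene 52615 bases from MUC3A, rose from 0.0631 ± 0.0328 to 6.93 ± 0.464 FPKM (log2 fold change 6.90, adjusted p = 3.56e-07, edgeR). TOLLIP, 12199 bases from MUC5B, was lower, at -0.44 on the log2 scale, and TNK2, beside MUC4, with -1.31 (adjusted p = 0.0364 and 9.8e-05, edgeR). The call of TOLLIP was lost without Empty replicate 3 and without each LINC00862 replicate in turn (-0.51 to -0.33). TRIM46 and AC234582, on the sides of MUC1, rose with log2 fold changes of 0.89 and 1.57 (adjusted p = 0.0021 and 0.00167, edgeR).

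**Figure D4:**
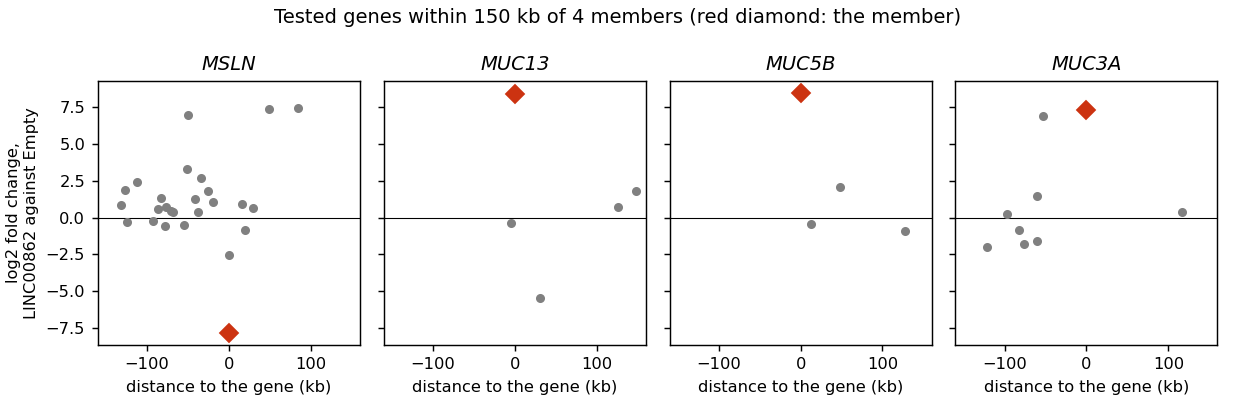
Log2 fold change of LINC00862 against Empty for tested genes within 150 kb of MSLN, MUC13, MUC5B and MUC3A, against their distance from the gene in kb; the red diamond is the gene itself, and grey points are the other tested genes. The 4 genes were chosen after their values were seen. The 25 genes around MSLN lie between -2.52 and 7.47, and HEG1, at -5.46, is the lowest of the 4 genes around MUC13.

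The genes whose 6 values were most like those of mesothelin, by Euclidean distance over log2(FPKM + 0.1), were WFDC21P, CLDN11, THY1, SLC43A3 and LAYN. Their Empty means were 28.4 to 43.7 FPKM and their LINC00862 means 0.0606 to 0.184 FPKM. THY1 is a GPI-anchored protein of fibroblasts and stem cells, CLDN11 a tight junction claudin and LAYN a hyaluronan receptor. The genes most like MUC13 were SELENOP, S100A14, TSPAN8, EPCAM and MAL2, with Empty means of 0.327 to 0.547 FPKM and LINC00862 means of 96.3 to 159.8 FPKM. EPCAM is an epithelial adhesion molecule, TSPAN8 a tetraspanin of gut epithelium and MAL2 a protein of apical transport. Likeness over 6 libraries in 2 groups reflects mainly the group difference.

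Among other mucins and mucin-like genes, 13 of 17 were listed and 8 were tested, of which 6 rose and 2 fell by edgeR. This is 100% called, beside 64.2% of all tested genes, 34.4% higher and 29.8% lower. The median log2 fold change of the 8 was 4.99, beside 0.11 for all tested genes. Counts in Empty were 0, 4 and 0 for MUC19, 3, 7 and 0 for MUCL1 and 10, 4 and 20 for PODXL2. These genes passed the filter only through LINC00862 and could only be called higher, and they enter the share called and the median. PARM1, a mucin-like membrane protein, rose from 0.126 ± 0.0336 to 45.1 ± 8.65 FPKM (log2 fold change 8.60), PODXL2, also called endoglycan, from 0.0774 ± 0.0556 to 23.4 ± 2.92 FPKM (8.36), and MUCL1, a small secreted mucin-like protein, from 0.0124 ± 0.0132 to 3.12 ± 0.646 FPKM (8.06). The falls were those of PODXL, the sialomucin podocalyxin, from 16.4 ± 5.42 to 2.59 ± 0.447 FPKM (-2.47), and CD164, endolyn, from 30.3 ± 7.85 to 12.3 ± 0.395 FPKM (-1.11). The podocalyxin relatives PODXL and PODXL2 thus moved in opposite directions. MUC2, the main mucin of the colon, had 8, 7 and 12 counts in Empty and 0 in each LINC00862 library and was not tested. STRC, a relative of mesothelin from the inner ear, rose with a log2 fold change of 5.55, while MSLNL fell and OTOA was not tested.

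Genes of mucus assembly and secretion were higher in LINC00862 in 15 of 17 tested, with 1 lower and 1 not called. This is 94.1% called, beside 64.2% of all tested genes, 34.4% higher. The median log2 fold change of the 17 was 7.02. With the 3 genes that had 0 counts in Empty at their lower bound, it was 4.11. These 3, and genes such as FOXA2 with few counts in Empty, passed the filter only through LINC00862 and could only be called higher. The largest fitted rises were those of FOXA2, TFF3 and FCGBP. FOXA2, a transcription factor of endoderm, had 0, 0.0212 and 0 FPKM in Empty and 6.33, 5.18 and 7.15 FPKM in LINC00862. TFF3, a trefoil peptide secreted with mucins, had 0 counts in Empty and was at least 17.2-fold higher, counting 3 reads per Empty library as the floor. FCGBP, a mucus protein that binds to gel-forming mucins, rose from 0.0239 ± 0.0175 to 8.34 ± 1.3 FPKM. Chosen after their values were seen, AGR2, the disulfide isomerase that gel-forming mucins need for folding, had 2.22 ± 0.0288 and 681 ± 141 FPKM, and TFF1, the trefoil peptide of the stomach, had 0.656 ± 0.490 and 215 ± 15.2 FPKM. SYTL2, an effector of vesicle secretion, was lower, with a log2 fold change of -3.16.

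The first steps of mucin-type O-glycosylation, in which GALNT enzymes attach the first sugar and others extend it, changed in both directions. Of 23 tested genes, 14 rose and 6 fell, or 87.0% called beside 64.2% of all tested genes. The median log2 fold change of the 23 was 0.84. GALNT3 rose from 0.0893 ± 0.0125 to 30.3 ± 0.755 FPKM (log2 fold change 8.52) and B3GNT3, which extends core 1 sugars, from 0.0265 ± 0.0458 to 7.12 ± 1.64 FPKM (8.18). ST6GALNAC1, which makes the sialyl-Tn antigen, had 0 counts in Empty and was at least 8.77-fold higher. GALNT2 fell from 22.0 ± 5.30 to 2.78 ± 0.839 FPKM (-2.82), ST3GAL2 by 1.63 and GCNT1, which makes the core 2 branch, by 1.59 on the log2 scale. The highest GALNT by mean FPKM was GALNT2 in Empty and GALNT3 in LINC00862.

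Synthesis of the GPI anchor, on which mesothelin depends, showed smaller differences. Of 25 tested genes 7 rose, 4 fell and 14 were not called, or 44.0% called beside 64.2% of all tested genes, and the median log2 fold change was 0.11. The balance turned with the scaling, with 4 higher and 6 lower when scaled by library size only, and 3 higher and 4 lower in both limma fits on FPKM. The largest rises were those of PGAP2, PIGC and PIGA (1.36, 1.14 and 1.11), and the largest falls those of PIGS, PIGZ and PIGU (-1.34, -1.02 and -0.92). Without LINC00862 replicate 1, 7 of these genes were called, and PIGZ, at -0.94, was not. Other GPI-anchored surface proteins split evenly, with 16 of 41 tested genes higher and 17 lower, or 80.5% called. TNFRSF10C, a decoy receptor for TRAIL, and CEACAM7 had 0 counts in Empty and were at least 50.1-fold and 25.5-fold higher. GPC4, a glypican, had 0, 4 and 0 counts in Empty and 557, 402 and 478 in LINC00862. Its fitted log2 fold change of 8.45 thus rests on few Empty reads, all in 1 library. Falls were led by THY1, LY6K and GFRA1, a receptor for GDNF (-8.50, -7.20 and -7.16).

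Of 12 partners and processing enzymes, 3 rose, 4 fell and 5 were not called, or 58.3% called beside 64.2% of all tested genes. FURIN, which cuts the mesothelin precursor, had 10.5 ± 1.31 FPKM in Empty and 11.0 ± 2.71 FPKM in LINC00862 and was not called (adjusted p = 0.267, edgeR). LGALS3, galectin-3, a lectin that binds MUC1 and MUC16, had 49.7 ± 9.15 and 31.6 ± 1.75 FPKM (adjusted p = 0.0525, edgeR), while LGALS1, galectin-1, had 735.3, 1112 and 1399 FPKM in Empty and 3.79, 4.84 and 4.29 FPKM in LINC00862 (log2 fold change -7.81, adjusted p = 2.47e-07, edgeR). ERBB2, the partner of MUC4, had 7.30 ± 0.583 and 5.83 ± 1.16 FPKM and was not called (adjusted p = 0.384, edgeR). MET, the partner of MUC20, had 17.6 ± 6.03 and 22.9 ± 3.94 FPKM, which overlapped between the groups (log2 fold change 0.57, adjusted p = 0.0349, edgeR), and its call was lost without Empty replicate 2 or 3 and without LINC00862 replicate 1 or 2, where the log2 fold change was 0.43 to 0.56. MMP7 and ERBB3 rose with log2 fold changes of 7.13 and 2.62, and CTNNB1, beta-catenin, which binds the tail of MUC1, and ADAM10, a sheddase, fell with -1.39 and -0.85.

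Markers of the cell types in which these genes are known were measured in the same libraries. Of those tested, edgeR called 100% of mesothelial, 72.7% of biliary and 50% of gastrointestinal markers, beside 64.2% of all tested genes. Of mesothelial markers 5 of 7 listed were tested, 2 higher and 3 lower, and their summed level was 12.8 to 18.7 FPKM in Empty and 0.572 to 0.993 FPKM in LINC00862. In Empty the sum was mostly BNC1 (10.8 ± 3.45 FPKM) and PDPN (3.85 ± 0.321 FPKM), which fell, and UPK3B fell too. The defining markers WT1, CALB2 and LRRN4 had 0 counts in 2 of the 3 Empty libraries each, ITLN1 had 0 in all 3, and WT1 and CALB2 rose to 0.252 ± 0.0600 and 0.335 ± 0.192 FPKM in LINC00862. The call of CALB2 was lost without Empty replicate 2 and without LINC00862 replicate 1 (log2 fold changes 3.07 and 3.09 in place of 3.64), and without Empty replicate 3, the only Empty library with counts of it, the fitted value was 8.41, against 0 counts and so no bound. Of biliary markers 6 of 11 tested rose, among them EPCAM and KRT19, and 2 fell, among them SOX9 from 13.2 ± 2.24 to 0.625 ± 0.130 FPKM. Their sum was 123.7 to 161.8 FPKM in Empty and 246.4 to 279.0 FPKM in LINC00862. Of gastrointestinal markers 2 of 7 listed were tested and REG4 was higher, at least 12.4-fold, but their sum was low, 0.0578 to 0.245 FPKM in Empty and 0.359 to 0.556 FPKM in LINC00862.

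The label of hepatoma cells was set against hepatocyte markers. Their sum was 9.57 to 9.69 FPKM in the Empty libraries and 2070 to 2519 FPKM in the LINC00862 libraries. In LINC00862 the fibrinogen chains and CPS1 made up most of it. Of 14 tested genes, 11 rose while AFP, SERPINA1 and ASGR1 fell, or 100% called beside 64.2% of all tested genes. TAT and TTR had 0 counts in Empty and were at least 31.1-fold and 25.2-fold higher. ALB, albumin, had 0, 0 and 0.0234 FPKM in Empty and 1.61, 1.71 and 1.21 FPKM in LINC00862, so the defining hepatocyte marker was nearly absent from Empty and low in LINC00862. Stromal, endothelial and leukocyte markers summed to 12.5 to 14.3 FPKM in Empty and 28.8 to 32.2 FPKM in LINC00862. Of the 12, 5 were higher, led by CDH5, CD68 and COL1A1, and PDGFRB and ACTA2 were lower, or 58.3% called. The part of these markers in the levels of mesothelin and the mucins was not tested. Each group has its own cells, and what LINC00862 did and where the cells came from cannot be told apart.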

How the data were processed

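RNA from 6 HCCLM3 libraries was captured with oligo(dT), made into strand-marked cDNA and sequenced in pairs. The authors deposited raw read counts per gene and FPKM, which scales fragments by transcript length and library size. The submitters' processing notes name cutadapt 1.9, HISAT2 2.0.4, UMI-tools, StringTie 1.3.4d, DESeq2, edgeR and hg38 without their roles, and whether counting used strand or collapsed molecular identifiers is not given in the sources used here.

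Counts were fitted with edgeR 4.0.16 (R 4.3.3, filterByExpr, TMM, quasi-likelihood test, Benjamini-Hochberg at 0.05, two-sided) over the whole table. The fit was first run on simulated counts with few changed genes and small folds. As most tested genes differ here, that run does not check the scaling of these data. Total counts were 58241123 to 68229070, and the floor of 3 counts covers counting error only. Alternatives used DESeq2 1.42.0 and limma 3.58.1, other scalings, filters, thresholds and pseudocounts on FPKM, a replicate block, and leaving out each library. In any list, a gene with almost no counts in 1 group passed the filter only through the other group. Such a gene could only be called higher in that other group. Levels between genes were compared in FPKM. Sequences came from GENCODE 29 and RefSeq. Members, lists and motifs were chosen with earlier results of these data known. Named in each list were the 3 largest rises and 3 largest falls among called genes, the partners of members, overlapping or nearest tested genes, and the 5 genes most like MSLN and MUC13. Genes of the lists outside the table were not analysed here, and the values of some list genes are not reported here. Tables and figures used Python 3.11.15, pandas 2.3.3 and matplotlib 3.10.9.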

Additional observations from a re-analysis of the deposited data

How the results depend on the processing

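The 7 fitted members kept their direction in all 13 alternative fits. MUC1 lay between 0.42 and 0.82 and was not called in 8 settings: library size only, without Empty replicate 2, without LINC00862 replicates 1 and 3, both limma fits, the false discovery rate of 0.01 and the test against a fold change of 2. MUC4 was not called with limma-trend on log2(FPKM + 1), where it fell to 0.04 and mesothelin to -4.92, since the pseudocount compresses low levels. Of 195 alternative counts of called genes, 186 stayed within 1.5 times. Testing for changes beyond 2-fold called 8010 genes in all in place of 13321, 9 of O-glycosylation in place of 20, 1 of GPI anchor synthesis in place of 11 and 4 partners in place of 7, because it asks for more. A false discovery rate of 0.01 gave 13 genes of O-glycosylation and 7 of GPI anchor synthesis, and both limma fits gave 7 of the latter; the cause of the limma counts was not tested. Leaving out each library gave 12063 to 14285 genes in all and 7 to 12 of GPI anchor synthesis. The median log2 fold change of all genes was 0.11, and 0.32 with upper quartile scaling, where 60.4% of calls were higher in place of 53.6%; with library size only it was -0.05 and 48.5%. Pairing was not seen by replicate number, with correlations of deviations of -0.05, -0.03 and -0.01, and the replicate block called 12098 genes and kept the 7 members' direction. Depth limits MUC4, MUC5AC, MUC12 and MUC16, which had at most 58 counts in any library.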
